A study of Mus musculus with 20 samples.

Results

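The clustered protocadherins are neighbouring cadherin genes on mouse chromosome 18, and their DNA methylation was described in microglia-enriched brain homogenate. Members were the genes whose symbol begins with Pcdha, Pcdhb, Pcdhga, Pcdhgb or Pcdhgc, 58 of the 49943 genes annotated on mm10, each taken with 1000 bp on either side. They hold 14 Pcdha, 22 Pcdhb and 22 Pcdhg genes between chr18:36930285-37841873, a span of 911.589 kb. Of the CpGs listed on chromosomes 1 to 19, X and Y, 584 of 1151198 lay in these genes at 13 months and 690 of 1234455 at 3 months. Of these, 583 were listed at both ages, 159 in Pcdha, 84 in Pcdhb and 340 in Pcdhg. Each value is the percent methylation of a CpG in a library made by reduced representation bisulfite sequencing (RRBS), in which a digest enriches for CpG-rich fragments.

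The study asked how overexpression of α-synuclein, a synaptic protein found in Lewy bodies, relates to DNA methylation in murine microglia. HEM mice carry full-length human wild-type α-synuclein on the X chromosome, driven by the murine Thy-1 promoter, and WT mice are their controls, all on the B6D2F1/J background. The strain label is missing for HEM replicate 3 at 13 months. There were 8 HEM and 4 WT libraries from mice of 13 months, and 4 HEM and 4 WT libraries from mice of 3 months. The series text counts 3 WT mice at 3 months, but 4 libraries carry that label. Thy-1 promoters are known for driving expression in neurons, and the homogenate was enriched for microglia rather than sorted, so the methylation of a locus is an average over the cells present. Shifts in the mix of cells and shifts within a cell type cannot be told apart in such values.

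Clustered protocadherins are cell-surface adhesion proteins through which neurites of the same neuron recognise each other. In the Pcdha and Pcdhg arrays, each variable exon has its own promoter and codes for the extracellular, transmembrane and proximal cytoplasmic parts, and it is spliced to shared constant exons at the end of the array. Pcdhb genes are single-exon genes without such constant exons. Most variable exons are alternate genes, of which a neuron switches on a few, apparently by chance, from alleles whose promoters lose methylation and bind CTCF, which with cohesin loops them to enhancers. The C-type genes Pcdhac1, Pcdhac2, Pcdhgc3, Pcdhgc4 and Pcdhgc5 lie at the ends of their arrays, and several of them are expressed widely among neurons. The annotation shows the shared ends, since 13 of 14 Pcdha genes and 21 of 22 Pcdhg genes ended within 10 bp of a common position, and 53 of the 58 genes are alternate. Gene starts here are the lower annotated coordinates, because these genes run towards rising coordinates on chromosome 18.

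Genome-wide methylation differed little, since library means over autosomal CpGs lay between 29.1% and 31.8% in HEM and between 30.4% and 31.1% in WT mice at 13 months, and between 30.2% and 30.5% in HEM and between 30.1% and 31.002% in WT mice at 3 months. HEM replicate 8 at 13 months was the lowest of these libraries, and values without it are given where they matter. No read counts accompany the percentages, so their depth is unknown. The ages form separately deposited sets with partly different CpGs, so age and set cannot be told apart. Expression of cell type markers was not measured here, and methylation over marker genes does not check the enrichment. Across 12 of 16 microglia marker genes with CpGs, mean methylation was 46.9% ± 5.15 in HEM libraries (SD, n = 8) and 49.3% ± 4.59 in WT libraries (SD, n = 4) at 13 months, and 51.8% ± 4.01 in HEM and 50.6% ± 2.63 in WT libraries (SD, n = 4 each) at 3 months. Across 13 neuron marker genes it was 17.9% ± 1.25, 17.7% ± 0.593, 16.7% ± 0.381 and 17.4% ± 0.191 in the same order of groups.

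**Figure D1:**
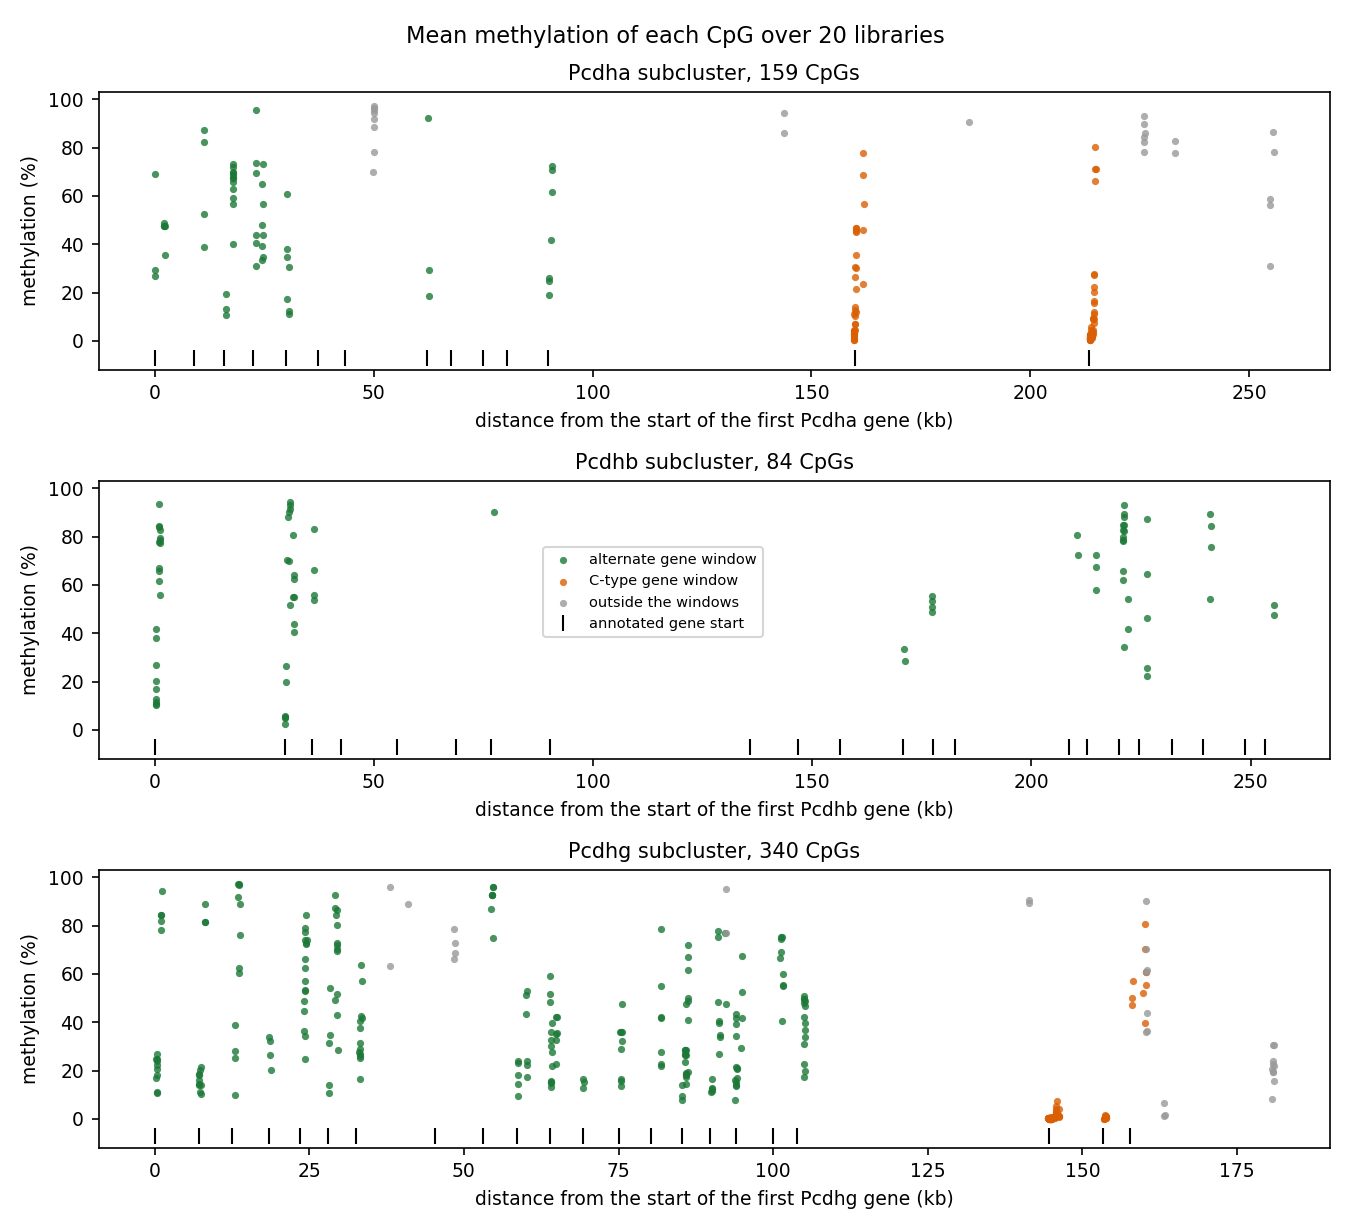
Methylation of each CpG listed at both ages (y axis, percent, mean of 20 libraries) against distance from the start of the first gene of its subcluster (x axis, kb). Alternate gene windows are green, C-type windows orange and other CpGs grey, and ticks mark annotated gene starts; each alternate array spans low and high CpGs, while the C-type windows Pcdhgc3 and Pcdhgc4 lie near 0%.

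Across the locus most CpGs were neither unmethylated nor fully methylated. Of the 583 CpGs, 52.1% had a mean of 20% to 80% over the 20 libraries, against 16.8% of all CpGs of chromosomes 1 to 19. CpGs below 5% made up 19.4% of the members, against 56.1% of all CpGs, and the medians were 34.2% and 1.39%. CpGs of chromosome 18 outside the cluster resembled the genome in this respect, with 15.9% of them between 20% and 80%. The subclusters differed in level. Pcdhb CpGs averaged 58.7%, and only 1.19% of them lay below 5%. Pcdha CpGs averaged 38.0% and Pcdhg CpGs 34.2%, with 24.5% and 21.5% of them below 5%. All 22 Pcdhb genes are alternate, while the Pcdha and Pcdhg values include C-type genes, so these levels do not compare like genes. These shares describe the CpGs that the digest covered and carry no test.

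Coverage was uneven between genes. Gene-start windows ran from 500 bp before to 2500 bp after an annotated start, with each CpG given to a single gene, and 38 of 58 genes had at least 3 CpGs in theirs. Pcdhg was covered best, with 21 of 22 windows, and the 9 windows of Pcdha and 8 of Pcdhb left many genes without a value. The 16 genes with no CpG in the window were Pcdha6, Pcdha7, Pcdha9, Pcdha10, Pcdha11, Pcdhb4, Pcdhb5, Pcdhb6, Pcdhb8, Pcdhb9, Pcdhb10, Pcdhb11, Pcdhb14, Pcdhb19, Pcdhb21 and Pcdhga6. Pcdhb7, Pcdhb12, Pcdhb15 and Pcdhb22 had 1 or 2 CpGs. Of the 33 windows of alternate genes, 31 had a mean of 20% to 80%, with a median of 46.8%. By subcluster, the median of alternate windows was 46.8% over 7 in Pcdha, 58.9% over 8 in Pcdhb and 36.8% over 18 in Pcdhg.

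Close to their starts, alternate genes were partly methylated. All 19 alternate genes with at least 3 CpGs within 500 bp of the start had means between 10% and 60% there, with a median of 23.5% and a range of 13.0% in Pcdhgb7 to 51.9% in Pcdhb13. The median was 39.7% over 4 genes of Pcdha, 21.0% over 3 of Pcdhb and 22.1% over 12 of Pcdhg. Across 12603 annotated gene starts of the genome measured in the same way, the median was 0.216%, and 6.87% lay between 10% and 60%. In this zone Pcdhga2 averaged 16.8% ± 4.003 in HEM (SD, n = 8) and 14.04% ± 3.46 in WT libraries (SD, n = 4) at 13 months, and 17.3% ± 1.88 in HEM and 14.5% ± 1.29 in WT libraries at 3 months (SD, n = 4 each). Pcdhga11 averaged 24.4% ± 6.80 and 23.0% ± 7.85 at 13 months, and 23.8% ± 4.83 and 22.0% ± 5.71 at 3 months, in HEM and WT libraries in that order. Genotypes overlapped at Pcdhga11 at both ages and at Pcdhga2 at 13 months. At 3 months they did not overlap at Pcdhga2, where the lowest HEM library was at 15.6% and the highest WT library at 15.5%, and this zone carries no test. Both starts were partly methylated in every group.

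**Figure D2:**
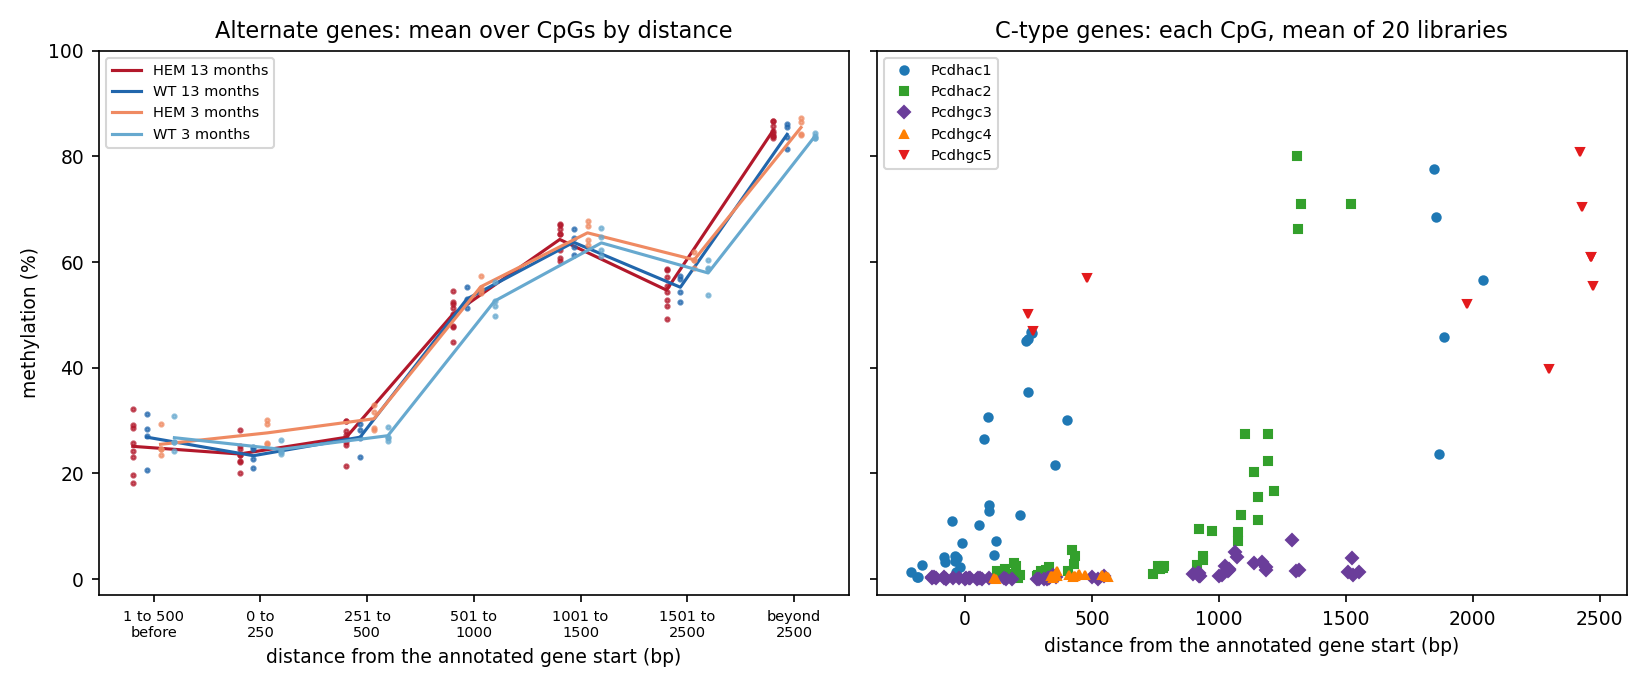
Methylation (y axis, percent) against distance from the annotated start (x axis, bp). Left, mean over the CpGs of alternate genes by distance class, with lines for group means and points for libraries, where the 20 libraries lie between 20.1% and 30.1% in the class 0 to 250 bp and between 81.3% and 87.2% beyond 2500 bp; right, each CpG of the 5 C-type windows as the mean of 20 libraries.

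Over all alternate genes, methylation was higher further from the start. The mean over CpGs was 24.6% up to 250 bp after the start and 27.6% from there to 500 bp. It was 52.3% in the next class, up to 1000 bp, then 64.3% up to 1500 bp and 56.6% up to 2500 bp. The 21 CpGs beyond 2500 bp, which lay at 2557 to 53849 bp from the start of the preceding gene, averaged 84.7%. The step between the class that ends at 500 bp and the one that ends at 1000 bp lay outside the spread between libraries, since the highest library reached 32.99% in the one and the lowest was at 44.9% in the other. By subcluster, Pcdhb averaged 34.1% in the class that ends at 500 bp and 77.8% in the next, and Pcdhg 25.4% and 46.8%. Pcdha had fewer than 3 CpGs in the class that ends at 500 bp, so its class up to 250 bp is given. It averaged 39.8% there, at 32.97% to 53.2% over the libraries, and 43.6% in the class that ends at 1000 bp, at 34.8% to 52.9%. The libraries overlapped between these Pcdha classes. The classes hold different genes, so the step was also taken within genes. In 14 alternate genes with at least 3 CpGs up to 500 bp and at least 3 from there to 2500 bp, the farther zone was higher in all 20 libraries for 11 genes, with a median difference of 37.7 points over the 14. It was 15.9% near and 83.8% far at Pcdhga2, 19.99% and 84.6% at Pcdhga1, and 21.0% and 75.6% at Pcdhb1. Within Pcdha, Pcdha12 rose in all 20 libraries, with 23.3% near and 61.7% far. Pcdha1 and Pcdhga8 were nearly level, at 3.68 and 3.82 points. Pcdha5 ran the other way in all 20 libraries, with 37.7% near and 18.01% far. Its far value rests on 3 CpGs, the last at 622 bp, so most of its farther zone was not measured.

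Within Pcdha, the alternate windows lay between 29.3% in Pcdha5 and 65.2% in Pcdha2. Pcdha3 and Pcdha4, the next genes along the array, averaged 54.4% over 15 CpGs and 53.5% over 14 CpGs, all of them more than 500 bp after the start. Pcdha2 was likewise measured only at 2310 to 2449 bp. Pcdha1, Pcdha8 and Pcdha12 averaged 44.0%, 46.8% and 45.2%.

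Within Pcdhb, windows ran from 49.2% in Pcdhb18 to 75.8% in Pcdhb20. The 2 genes at the beginning of the subcluster had the fullest coverage. Pcdhb1, measured at 21 CpGs, averaged 52.2%, and Pcdhb2, at 21 CpGs, averaged 53.1%, each with a low start and a high exon. Pcdhb17 and Pcdhb16 averaged 73.3% and 65.8%, at CpGs from 801 bp onwards. Pcdhb13 was the reverse case in coverage, since its 4 CpGs lay 138 to 77 bp before the start, and it still averaged 51.9%.

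Within Pcdhg, alternate windows ran from 14.9% in Pcdhgb5, measured only at 140 to 211 bp, to 90.2% in Pcdhga7, measured only at 1347 to 1613 bp. Pcdhga7 was the highest window of the cluster and its libraries lay between 85.3% and 94.6%. Pcdhga3 averaged 64.5%, and Pcdhgb8, annotated as a transcribed pseudogene, averaged 63.5%. Neighbours in this order often differed by less than the spread between libraries of a group, as Pcdhga3 and Pcdhgb8 did at 63.7% ± 2.28 and 62.9% ± 3.37 in HEM libraries at 13 months (SD, n = 8).

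The C-type genes did not share a level. Pcdhgc3, measured at 56 CpGs, averaged 1.03% and no library exceeded 1.80%. Pcdhgc4, measured at 17 CpGs, averaged 0.583%, with the highest library at 1.04%. Pcdhgc5, the last gene of the array, averaged 57.5% over 10 CpGs. Its HEM libraries at 13 months lay between 54.7% and 66.4% with a median of 60.7%, and the WT libraries were at 37.8%, 54.9%, 59.0% and 59.0%. At 3 months its HEM libraries were at 54.3%, 50.1%, 59.7% and 57.2% and its WT libraries at 63.7%, 52.6%, 57.4% and 60.3%. Thus in every library Pcdhgc5 stood far above Pcdhgc3 and Pcdhgc4, and its groups overlapped.

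In the alpha array, both C-type windows held a transition. Pcdhac2 averaged 2.48% over 30 CpGs up to 973 bp after the start, 16.9% over 10 CpGs at 1075 to 1217 bp, and 72.1% over 4 CpGs at 1306 to 1519 bp. No library overlapped between these zones, since the highest reached 4.12% in the nearest zone, the middle zone ran from 11.7% to 23.8%, and the lowest was 62.0% in the farthest. Pcdhac1 averaged 3.49% over 13 CpGs before the start, 25.9% over 15 CpGs at 56 to 401 bp and 54.4% over 5 CpGs at 1847 to 2041 bp. Pcdhac1 was thus close to the alternate genes in level after its start, and nearly unmethylated before it.

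Past the windows, the region towards the shared end of Pcdha, where the constant exons lie, averaged 75.7% over 13 CpGs. In Pcdhg, 7 CpGs at 2510 to 2619 bp from the Pcdhgc5 start averaged 56.9%, while 3 CpGs at 5483 to 5523 bp averaged 3.05%, with all libraries between 1.06% and 8.59%. Beyond the shared end of Pcdhg, 10 CpGs averaged 21.3%.

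Libraries of a group varied at partly methylated protocadherin CpGs about as much as elsewhere. The median SD within groups was 8.47 points over the 304 member CpGs with means of 20% to 80% and 9.82 points over such CpGs of chromosomes 1 to 19. The CpG with the largest spread lay in the last part of Pcdha, 41424 bp after the Pcdhac2 start, with an SD of 21.2 points, and the next in Pcdha12, with 19.9 points. Both strands of a CpG could appear as neighbouring positions, and 23 such pairs with means of 20% to 80% differed by 9.93 points on average. That value is of the size of the spread between libraries.

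**Figure D3:**
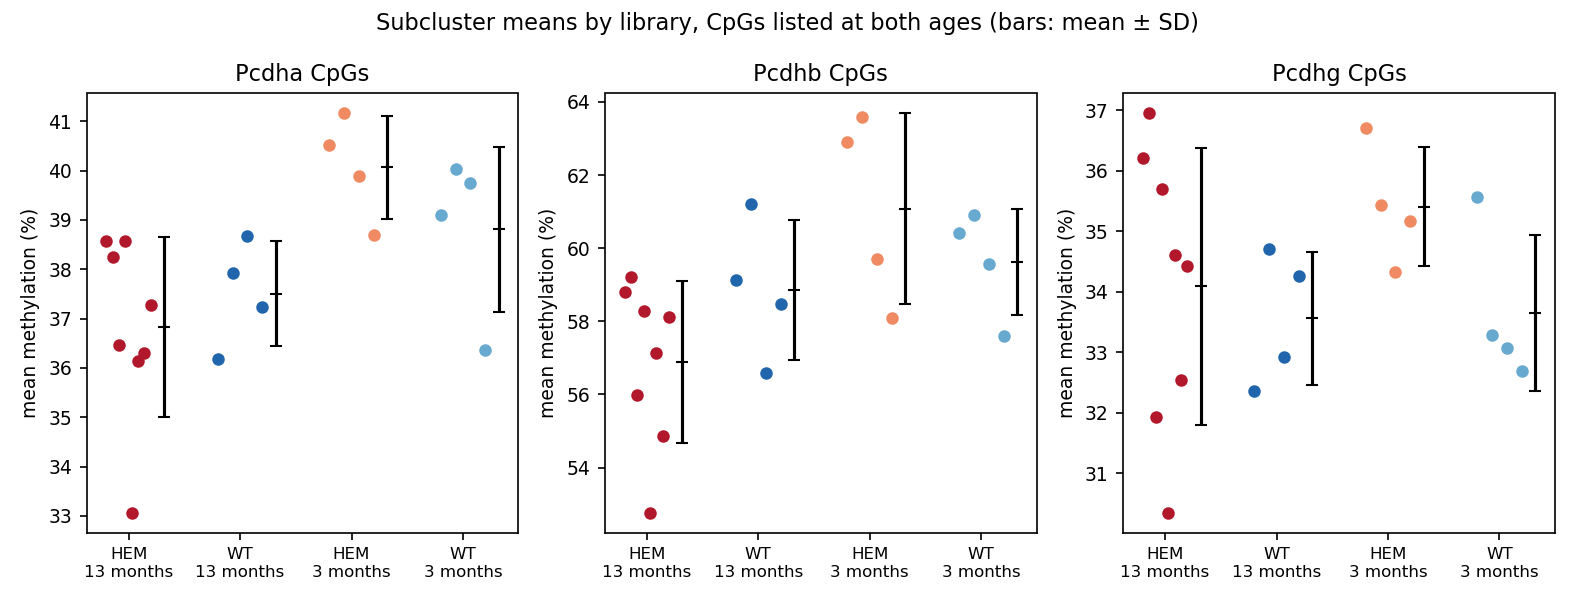
Mean methylation (y axis, percent) of Pcdha, Pcdhb and Pcdhg CpGs listed at both ages, with a point for each library and bars for mean ± SD, in HEM and WT libraries at 13 and 3 months (x axis). Axes are cut to the range of the data; the Pcdha points of HEM libraries at 13 months all lie below those of HEM libraries at 3 months.

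At 13 months, HEM and WT libraries did not separate in any subcluster. Pcdha averaged 36.8% ± 1.83 in HEM (SD, n = 8) and 37.5% ± 1.07 in WT libraries (SD, n = 4), a difference of -0.67 points. Pcdhb averaged 56.9% ± 2.21 in HEM and 58.9% ± 1.91 in WT libraries, a difference of -1.96 points. Pcdhg averaged 34.0% ± 2.28 in HEM and 33.5% ± 1.08 in WT libraries, a difference of 0.53 points. All these groups overlapped. HEM replicate 8 was the lowest HEM library in all 3 subclusters, and without it the differences were -0.14, -1.37 and 1.07 points in the same order. Other libraries moved them too, with Pcdha at -1.12 points without WT replicate 1 and -0.28 without WT replicate 6, and Pcdhb at -1.17 without WT replicate 2. The Pcdhg difference ran from 0.13 points without HEM replicate 3 to 1.07 without HEM replicate 8, and was 0.14 without WT replicate 1. No call was made in limma at a Benjamini-Hochberg adjusted p under 0.05 and 10 points, with 0 of 460 member CpGs, against 0.000881% of all CpGs tested. At an unadjusted p under 0.05 there were 16 of 460, or 3.48%, against 5.82% of all CpGs tested. Among 1000 bp tiles with at least 3 CpGs, 0 of 61 were called at 5 points, against 0% of all tiles, and 4 had an unadjusted p under 0.05, or 6.56%, against 5.52% of all tiles. The median difference of the member CpGs was 0.09 points, and that of all CpGs tested -0.10 points.

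The widest genotype gap at 13 months was at Pcdhb13. Its window lay between 36.3% and 57.0% in HEM libraries, with a median of 48.8%, and at 58.4%, 62.4%, 66.7% and 55.6% in WT libraries. HEM libraries averaged 46.8% ± 6.74 and WT libraries 60.8% ± 4.83. The groups overlapped through the highest HEM library alone. The tile chr18:37442001-37443000, which holds the same 4 CpGs, had an adjusted p of 0.885 (limma, Benjamini-Hochberg). Of these CpGs, the one 109 bp before the start averaged 44.2% ± 10.1 in HEM (SD, n = 8) and 71.1% ± 11.6 in WT libraries (SD, n = 4), and the one 138 bp before it 39.1% ± 11.2 and 60.6% ± 1.20. Neither pair of groups overlapped, and the limma adjusted p values were 0.671 and 0.774. Over all member CpGs, 4 of 460 had groups that did not overlap, or 0.87%, against 0.445% of all CpGs tested.

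All 8 Pcdhb windows were lower in HEM than in WT libraries at 13 months, without a call. They had a median difference of -2.18 points, and after Pcdhb13 came Pcdhb16 at 63.4% ± 6.58 in HEM (SD, n = 8) and 70.2% ± 6.51 in WT libraries (SD, n = 4). In Pcdha 7 of 9 windows were lower. In Pcdhg 17 of 21 windows were higher, with a median difference of 0.93 points over the 21. They were led by Pcdhgc5 at 60.4% ± 3.74 in HEM and 52.7% ± 10.1 in WT libraries. WT replicate 1 was at 37.8% at Pcdhgc5, against 54.9% to 59.0% in the other WT libraries of that age. Pcdha8, the second highest difference, was at 47.5% ± 7.22 in HEM and 43.7% ± 6.68 in WT libraries, over 3 CpGs. HEM replicate 1 was at 64.0% there, against 41.8% to 50.3% in the other HEM libraries of that age. Over the 38 windows, 19 were higher and 19 lower, and none of them had groups without overlap. Of all tiles tested, 47.1% were higher in HEM libraries and 0.46% had groups without overlap. Near the end of Pcdha, the tile chr18:37185001-37186000 averaged 58.1% ± 6.13 in HEM and 68.8% ± 4.75 in WT libraries, with a limma adjusted p of 0.885 (Benjamini-Hochberg). At Pcdhga5, the CpG 686 bp after the start averaged 24.5% ± 5.64 in HEM and 45.2% ± 14.7 in WT libraries, with overlapping groups and a limma adjusted p of 0.752.

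**Figure D4:**
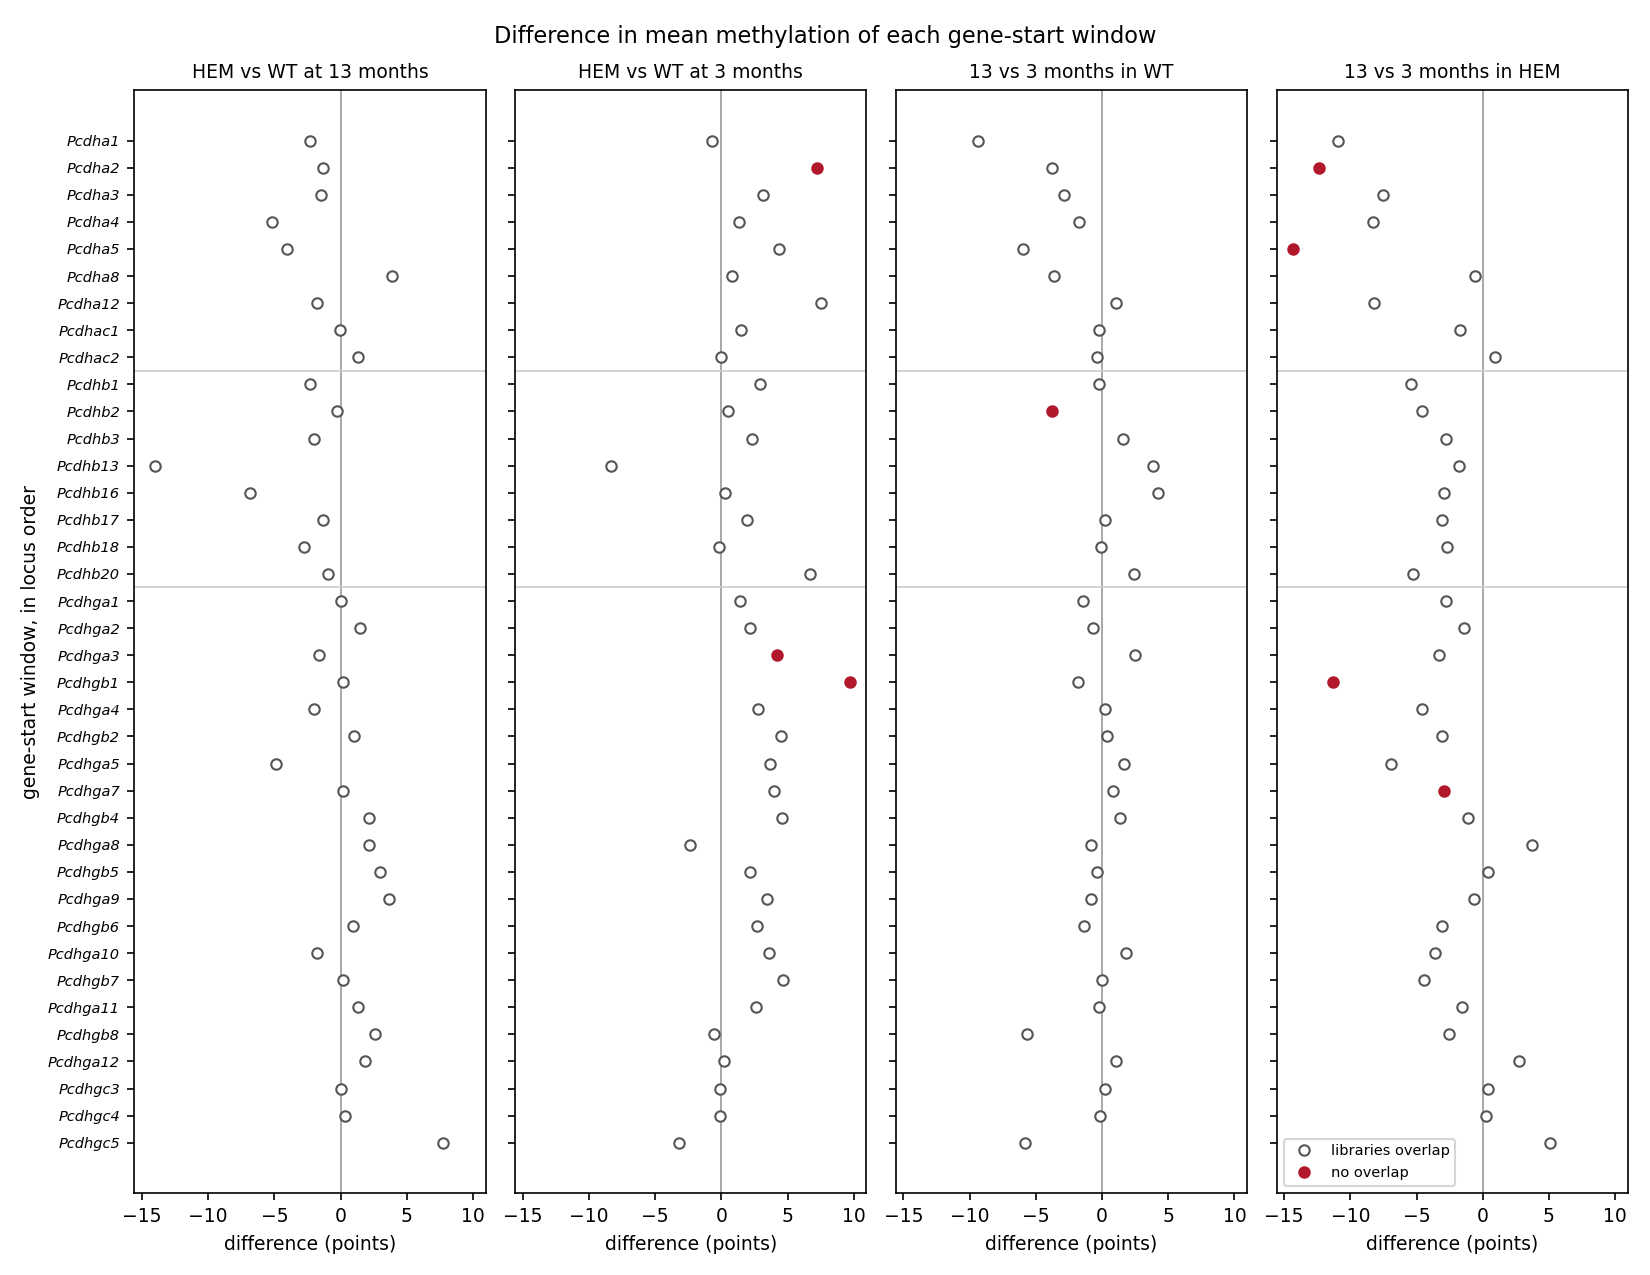
Difference in mean methylation of each of the 38 gene-start windows (x axis, percentage points, HEM minus WT or 13 months minus 3 months; y axis, genes in locus order, with lines between subclusters). Filled red points mark windows whose libraries do not overlap between groups, 0, 3, 1 and 4 of 38 in the panels from left to right.

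At 3 months, HEM libraries were slightly above WT libraries in each subcluster, with overlap. Pcdha averaged 41.1% ± 1.20 in HEM and 39.9% ± 1.93 in WT libraries, Pcdhb 61.9% ± 2.48 and 60.3% ± 1.04, and Pcdhg 37.6% ± 0.935 and 35.7% ± 1.25 (SD, n = 4 each). In limma 0 of 560 member CpGs were called, against 0% of all CpGs tested, and 20 had an unadjusted p under 0.05, or 3.57%, against 4.53%. Of 67 tiles 0 were called, against 0% of all tiles, and 3 had an unadjusted p under 0.05, or 4.48%, against 4.5%. In value, 52 of 67 tiles were higher in HEM libraries, or 77.6%, against 49.5% of all tiles tested. The median difference was 1.93 points over member tiles and -0.03 points over all tiles. In 6 member tiles the groups did not overlap, or 8.96%, against 2.53% of all tiles. Neighbouring tiles of a locus share libraries and are not independent, so these shares carry no test.

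Of the 38 windows, 29 were higher and 9 lower in HEM libraries at 3 months. Pcdhgb1 was at 36.9%, 42.9%, 36.2% and 31.5% in HEM libraries, against 29.8%, 30.6%, 23.2% and 24.98% in WT libraries. The groups did not overlap, and its tile chr18:37680001-37681000 had a limma adjusted p of 0.994 (Benjamini-Hochberg). Pcdha2 was at 75.4%, 74.8%, 71.4% and 73.7% in HEM libraries and at 65.7%, 69.7%, 70.2% and 60.7% in WT libraries, again without overlap. Pcdhga3 was the remaining window of this kind, at 66.95% ± 1.55 in HEM and 62.8% ± 2.33 in WT libraries (SD, n = 4 each). Pcdha12 averaged 51.3% ± 7.93 in HEM and 43.8% ± 9.02 in WT libraries, with overlap. Lower windows were led by Pcdhb13, at 47.6%, 53.1%, 52.1% and 41.4% in HEM libraries and 61.9%, 53.4%, 65.7% and 46.5% in WT libraries. Pcdhb13 was thus below WT in mean at both ages, with overlapping groups at each.

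Among single CpGs at 3 months, the lowest p values fell in Pcdhg genes. The CpG 1597 bp after the Pcdhgb4 start averaged 30.7% ± 6.71 in HEM and 11.8% ± 5.23 in WT libraries. The CpG 740 bp after the Pcdhga10 start averaged 34.2% ± 4.48 and 14.9% ± 5.29, and the CpG 200 bp after the Pcdhgb7 start 23.0% ± 8.09 and 7.62% ± 2.83 (SD, n = 4 each). All 3 had a limma adjusted p of 0.985 (Benjamini-Hochberg). The tile of Pcdha3 at chr18:36946001-36947000 averaged 21.8% ± 5.35 in HEM and 13.8% ± 4.75 in WT libraries, with an adjusted p of 0.994 in limma.

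Between ages in WT mice, differences were small. Pcdha averaged 37.5% ± 1.07 at 13 months and 38.8% ± 1.68 at 3 months, Pcdhb 58.9% ± 1.91 and 59.6% ± 1.46, and Pcdhg 33.6% ± 1.10 and 33.7% ± 1.29 (SD, n = 4 each), on CpGs listed at both ages. The groups overlapped in each subcluster. In limma 0 of 459 member CpGs were called, against 0.0183% of all CpGs tested, and 9 had an unadjusted p under 0.05, or 1.96%, against 4.79%. Of 61 tiles 0 were called, against 0.00572%, and 1 had an unadjusted p under 0.05, or 1.64%, against 5.05%. The median difference was -0.78 points over member CpGs and 0.84 points over all CpGs tested.

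The widest differences in WT mice were at Pcdha1 and Pcdha5. Pcdha1 was at 41.3%, 40.03%, 44.9% and 38.9% at 13 months, against 52.4%, 56.1%, 55.1% and 39.0% at 3 months. A single 3-month library, replicate 5, lay among the 13-month values. The tile chr18:36932001-36933000, with the 5 CpGs from 2045 bp after its start, averaged 40.6% ± 3.08 at 13 months and 53.7% ± 10.55 at 3 months (SD, n = 4 each), with a limma adjusted p of 0.931 (Benjamini-Hochberg). Pcdha5 was at 23.4%, 22.8%, 29.3% and 35.0% at 13 months and 36.7%, 35.9%, 33.2% and 28.6% at 3 months. Pcdhb16 and Pcdhb13 were the most positive, at 70.2% ± 6.51 and 60.8% ± 4.83 at 13 months against 66.0% ± 2.86 and 56.9% ± 8.64 at 3 months (SD, n = 4 each). Pcdhb2 was the only window of the 38 whose WT ages did not overlap, at a difference of -3.77 points. Over all tiles tested, 3.04% had WT ages without overlap and 60.8% were higher at 13 months, while of the 38 windows 16 were higher and 22 lower. The CpG 4 bp before its start averaged 2.30% ± 1.70 at 13 months and 7.85% ± 1.95 at 3 months. The CpG 1154 bp after the Pcdhac2 start averaged 2.99% ± 3.46 and 16.3% ± 7.54, and the CpG 613 bp after the Pcdha5 start 6.22% ± 3.38 and 18.4% ± 4.50 (SD, n = 4 each). The limma adjusted p of all 3 was 0.975 (Benjamini-Hochberg). Past the Pcdhac1 start, the tile chr18:37092001-37093000 averaged 47.4% ± 5.18 at 13 months and 39.2% ± 2.28 at 3 months, with a limma adjusted p of 0.931.

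**Figure D5:**
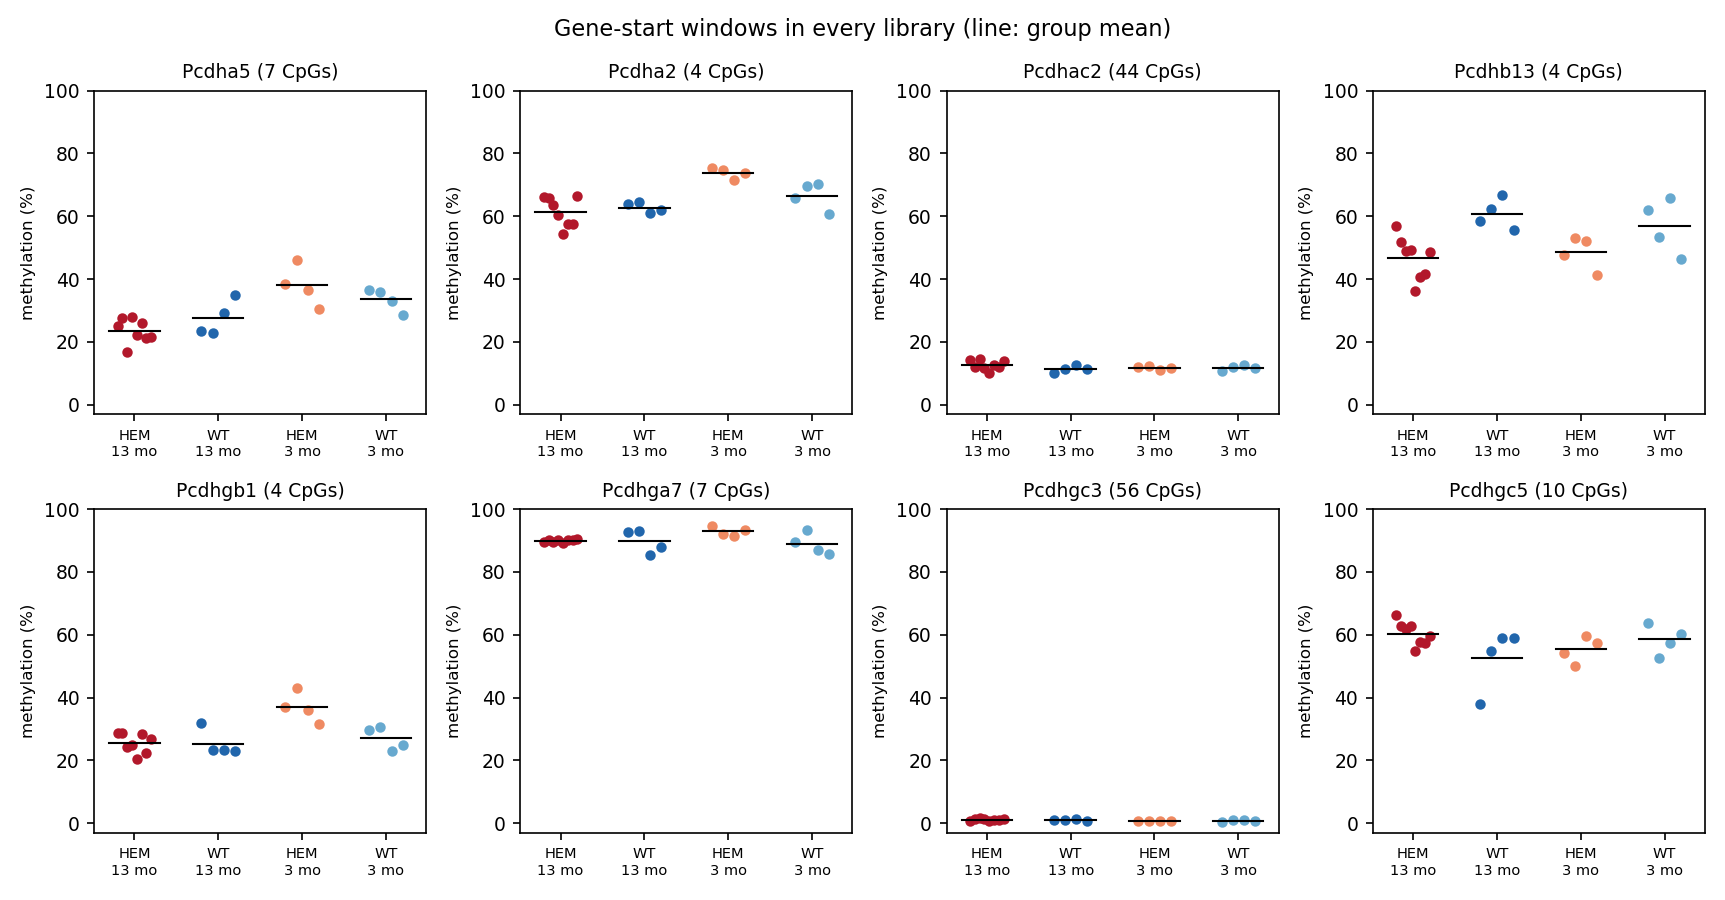
Methylation (y axis, percent) of 8 gene-start windows in every library of the HEM and WT groups at 13 and 3 months (x axis), with a line at each group mean. At Pcdha5 the HEM libraries lie between 16.9% and 28.1% at 13 months and between 30.6% and 46.0% at 3 months, and Pcdhgc3 stays below 2% throughout.

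Between ages in HEM mice, the cluster was lower at 13 months, and no CpG or tile passed the call. Pcdha averaged 36.8% ± 1.83 at 13 months (SD, n = 8) and 40.1% ± 1.05 at 3 months (SD, n = 4), a difference of -3.24 points. All 8 libraries of 13 months, the highest at 38.6%, lay below the 4 of 3 months, the lowest at 38.7%. Pcdhb averaged 56.9% ± 2.21 at 13 months and 61.1% ± 2.61 at 3 months, and Pcdhg 34.1% ± 2.29 and 35.4% ± 0.984, with overlap in both. Without HEM replicate 8 of 13 months the differences were -2.70 points in Pcdha, -3.59 in Pcdhb and -0.78 in Pcdhg, against -3.24, -4.18 and -1.32 with it. Set relative to each library's mean over all CpGs, they were -3.68, -4.63 and -1.76 points. The 4 HEM libraries of 3 months also enter the genotype comparison at 3 months, in which they lay above WT, so these comparisons share them.

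Counts over members ran against the genome in direction. In value 304 of 462 member CpGs were lower at 13 months and 158 higher, or 34.2% higher, against 56.7% of all CpGs tested. The median difference was -2.67 points over members and 0.83 points over all CpGs. In limma 0 of 462 were called, against 0.0305% of all CpGs, while 52 had an unadjusted p under 0.05, or 11.3%, against 10.4%. Of these 52, 45 were lower, or 9.74% of those tested, against 4.41% of all CpGs. Among tiles 0 of 61 were called, against 0.00286%, and 12 had an unadjusted p under 0.05, or 19.7%, against 13.6%. All 12 were lower, so lower tiles at this p made up 19.7% of member tiles, against 5.19% of all tiles. In 5 member tiles the ages did not overlap, or 8.2%, against 1.28% of all tiles. By subcluster, tiles with an unadjusted p under 0.05 were 6 of 16 in Pcdha, 2 of 12 in Pcdhb and 4 of 33 in Pcdhg. CpGs and tiles of a locus share libraries and are not independent, so the gap between these shares and the genome was not tested.

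Of the 38 windows 31 were lower at 13 months, including all 8 of Pcdhb, 8 of 9 of Pcdha and 15 of 21 of Pcdhg. Of all tiles tested, 59% were higher at 13 months. Pcdha5 lay between 16.9% and 28.1% at 13 months, with a median of 23.6%, and was at 38.6%, 46.0%, 36.7% and 30.6% at 3 months. The ages did not overlap, and the tile chr18:36960001-36961000, with the same 7 CpGs, differed by -14.4 points at a limma adjusted p of 0.170 (Benjamini-Hochberg). Pcdha2 averaged 61.5% ± 4.64 at 13 months (SD, n = 8), between 54.5% and 66.4% with a median of 61.9%, against 75.4%, 74.8%, 71.4% and 73.7% at 3 months. These ages did not overlap either, and the tile chr18:36941001-36942000 had a limma adjusted p of 0.174. Pcdhgb1 averaged 25.5% ± 3.09 at 13 months (SD, n = 8) and 36.9% ± 4.69 at 3 months (SD, n = 4), and Pcdhga7 89.9% ± 0.412 and 92.8% ± 1.44, both without overlap. Pcdha2 and Pcdhgb1 also stood apart from WT at 3 months, in the comparison that uses the same 4 libraries.

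Other Pcdha windows were lower at 13 months with overlap, as at Pcdha1, with 39.0% ± 5.45 and 49.9% ± 5.01, and Pcdha4, with 49.4% ± 3.82 and 57.7% ± 1.14 (SD, n = 8 at 13 months and n = 4 at 3 months). Windows higher at 13 months were led by Pcdhgc5, at 60.4% ± 3.74 and 55.3% ± 4.10, and Pcdhga8, at 33.9% ± 3.64 and 30.2% ± 1.87. The unmethylated C-type windows moved little in points, with Pcdhgc3 at 1.18% ± 0.323 and 0.760% ± 0.105 and Pcdhgc4 at 0.718% ± 0.259 and 0.496% ± 0.367. Among CpGs, the lowest p values were 834 bp after the Pcdhga5 start, with 58.9% ± 7.02 at 13 months and 78.6% ± 8.11 at 3 months, and 561 bp after the Pcdha3 start, with 7.07% ± 4.29 and 21.8% ± 9.33. The CpG 1495 bp after the Pcdhgb6 start followed, with 73.3% ± 7.73 and 88.5% ± 5.15. Their limma adjusted p values were 0.304, 0.308 and 0.317 (Benjamini-Hochberg).

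Microglia and leukocyte marker gene methylation and the cluster were low in the same HEM libraries of 13 months. Of the 8 HEM libraries of 13 months, replicates 6, 8 and 11 had the lowest mean over all protocadherin CpGs, at 36.6%, 34.3% and 36.8%, and the same 3 had the lowest microglia marker means, at 42.1%, 43.2% and 40.4%. They were also the 3 lowest in the leukocyte and border macrophage list, of which 5 of 9 genes were measured, at 57.4%, 57.6% and 57.1%. The neuron list and the endothelium and pericyte list differed, since replicate 6 was the highest of the 8 in both, at 19.4% and 60.2%. Replicate 8 was the lowest in these lists, at 15.7% and 48.7%. Among WT libraries of 13 months, replicate 1 had the lowest cluster mean, at 37.3%. It had the highest microglia marker mean, at 53.8%, and the highest leukocyte list mean, at 67.5%. WT libraries of 3 months had the same order in cluster and microglia marker means. It ran from replicate 1, at 40.1% and 53.1%, through replicates 3 and 4 to replicate 5, at 37.3% and 47.3%. In the leukocyte list the order differed, with replicate 3 the highest, at 63.1%, and replicate 4 the lowest, at 58.8%. HEM replicates 1 and 2 of 3 months were the highest of their group in all of these means. Their cluster means were 41.5% and 41.1%, their microglia marker means 56.5% and 53.8% and their leukocyte list means 65.1% and 65.2%. The 12 measured microglia marker genes averaged 40.4% to 54.2% in HEM libraries of 13 months and 48.4% to 56.5% in those of 3 months. Other marker lists had HEM means of 36.1% and 35.0% for astrocytes, 37.1% and 36.3% for oligodendrocytes, 55.7% and 54.3% for endothelium and pericytes, and 59.7% and 62.9% for leukocytes, at 13 and at 3 months. The part of cell composition in the protocadherin difference was not tested.

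The dependence of the genotype difference on age was tested as an interaction, and it passed in no protocadherin CpG. In limma 0 of 459 were called, against 0.000224% of all CpGs, and 24 had an unadjusted p under 0.05, or 5.23%, against 6.28%. Of 61 tiles 0 were called, against 0%, and 6 had an unadjusted p under 0.05, or 9.84%, against 6.36%. The CpG at 1597 bp in Pcdhgb4 averaged 22.2% ± 7.74 in HEM (SD, n = 8) and 25.1% ± 6.32 in WT libraries (SD, n = 4) at 13 months, and 30.7% ± 6.71 and 11.8% ± 5.23 at 3 months (SD, n = 4 each), with a limma adjusted p of 0.733 for the interaction. The CpG 197 bp after the Pcdha5 start averaged 50.8% ± 10.55 in HEM and 71.7% ± 17.6 in WT libraries at 13 months, and 71.2% ± 5.69 and 60.02% ± 9.46 at 3 months, with a limma adjusted p of 0.764. The CpG 388 bp after the Pcdhga3 start had a limma adjusted p of 0.767. The tile of Pcdha3 at chr18:36946001-36947000 averaged 10.7% ± 3.998 in HEM and 15.01% ± 2.08 in WT libraries at 13 months, and 21.8% ± 5.35 and 13.8% ± 4.75 at 3 months, with a limma adjusted p of 0.749. The tile of Pcdhga5 at chr18:37695001-37696000 followed at 0.756.

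Genes that act on or with the cluster were examined as whole gene regions from 4 lists. The regulators, such as Ctcf, the cohesin subunit Rad21, the de novo methyltransferase Dnmt3b and Smchd1, had 11 of 16 regions tested, and 0 had an unadjusted p under 0.05 in any comparison or in the interaction. Over all gene regions the share was 4.05% and 4.03% between genotypes at 13 and 3 months, 4.98% between ages in WT mice, 12.9% between ages in HEM mice and 5.18% in the interaction. Non-clustered protocadherins, large cadherins and partners of the shared cytoplasmic tail had 0 limma calls in every comparison. Between ages in HEM mice, 4 of 8 non-clustered protocadherins had an unadjusted p under 0.05, against 2490 of 19319 regions, or 12.9%. Pcdh8 averaged 6.21% ± 0.982 at 13 months (SD, n = 8) and 4.17% ± 0.877 at 3 months (SD, n = 4), with a limma adjusted p of 0.216 (Benjamini-Hochberg). Pcdh9 averaged 29.9% ± 1.66 and 27.0% ± 1.12, with a limma adjusted p of 0.299. Both were higher at 13 months, as were 12330 of the 19319 regions. At 3 months, Pcdh12 averaged 54.1% ± 0.679 in HEM and 56.1% ± 0.645 in WT libraries (SD, n = 4 each), with a limma adjusted p of 0.9999.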

How the data were processed

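RRBS was made from DNA of 20 microglia-enriched brain homogenates. The deposited files give the percent methylation per CpG. The submitters' processing notes name Bowtie2, methylKit and the mm10 build, without versions. Read counts are not in these files, so the depth is unknown, and count tests, intervals and coverage filters were not possible. The labels do not say more about the mice than genotype, age and strain, so p-values measure the spread between these libraries. Tables of the whole series had 21 value columns without names, which were not used.

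Genes came from the RefSeq table of the same assembly, which gives no strand. CpGs and 1000 bp tiles (mean 5% to 95% over the libraries compared, tiles of at least 3 CpGs) were tested over chromosomes 1 to 19, X and Y with limma 3.58.1 (R 4.3.3), moderated and with Benjamini-Hochberg adjustment. The values fitted were log2 of the ratio of methylated to unmethylated percent, with 1 added to each, computed from the deposited percentages. Calls needed an adjusted p under 0.05 and 10 points for CpGs or 5 for tiles. The fit was also run on simulated data with known changes, and the share recovered is not reported here. Subcluster and window means were described without a test. Genotype comparisons used every CpG of that age, and age comparisons, windows and levels those listed at both ages. Values over libraries weight each library equally.

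Named windows were the 3 highest and 3 lowest of each subcluster, all C-type genes, the 2 of largest spread and, per comparison, the 2 of largest difference in each direction. Named CpGs and tiles were the 3 and 2 of smallest p per comparison, and other genes the 2 of smallest p. Further windows are named for coverage, position or groups without overlap, a choice made with their values known. The members and gene lists were chosen with earlier results of these data known. Alternatives covered scale, offset, filters, variances, strands, tile size, flank, a replicate block and leaving out each library. Same-numbered libraries did not deviate together in every pair, so the numbers were not taken as pairs.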

Additional observations from a re-analysis of the deposited data

Results flagged for a closer look

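Among 112 combinations of a subcluster or named window with a group, a single library stood far from the rest of its group in 8, or 7.14%, where chance gives about 1 in 20. HEM replicate 8 at 13 months had a Pcdha mean of 33.1%, against 36.1% to 38.6% in the other HEM libraries of that age. HEM replicate 3 at 13 months had 57.6% at Pcdha4, against 45.4% to 51.1%. HEM replicate 1 at 13 months had 64.0% at Pcdha8, against 41.8% to 50.3%. HEM replicate 7 at 13 months had 50.8% at Pcdha1, against 33.2% to 41.4%. WT replicate 1 at 13 months had 31.9% at Pcdhgb1, against 23.0% to 23.2%. At 3 months, WT replicate 3 had 58.2% at Pcdha4, against 55.5% to 55.9%. WT replicate 1 had 50.4% at Pcdhb1, against 53.2% to 53.8%, and WT replicate 5 had 65.6% at Pcdhb20, against 75.2% to 76.9%. The cause of these single values was not tested.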

How the results depend on the processing

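The counts of called protocadherin CpGs and tiles were 0 under all alternatives, 33 for CpGs and 24 for tiles, and in the 60 fits of each kind with a library left out. With a replicate block, in which a library whose number occurs once does not inform the comparison, they were 0 as well. No paired analysis was possible for WT mice between ages because those groups share a single replicate number. Same-numbered libraries correlated between -0.154 and 0.227 in their deviations. Between ages in HEM mice, member CpGs with an unadjusted p under 0.05 numbered 17 with the block and up to 81 without the filter on means, against 52, and tiles 2 with the block and up to 19 on the percent scale, against 12. The 12 mean differences of subclusters moved by less than the spread between libraries in all 60 alternatives and with any library left out. With a library left out, the HEM age difference ran from -3.69 to -2.70 points in Pcdha, -5.17 to -3.34 in Pcdhb and -1.73 to -0.78 in Pcdhg. The HEM minus WT difference at 13 months ran from -1.12 to -0.14 points in Pcdha, -2.72 to -1.17 in Pcdhb and 0.13 to 1.07 in Pcdhg, and that at 3 months from 0.22, without WT replicate 5, to 1.70 points in Pcdha, 0.82 to 2.45 in Pcdhb and 1.56 to 2.49 in Pcdhg. Between ages in WT mice it ran from -2.12 to -0.86 points in Pcdha and -1.56 to -0.01 in Pcdhb. The sign changed in 3 of 180 settings, all for Pcdhg between ages in WT mice, where it ran from -0.47 to 0.54 points around -0.09. Percentages without read counts limit how small a difference can be seen at a single CpG.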
